A study of Mus musculus with 12 samples.

Results

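In the mouse microglial cell line N9, an immortalised culture, 107 protein-coding genes stood at or below 50% of their control RNA level after lipopolysaccharide (LPS). They were chosen from the measured values by a rule. Read counts were scaled to a common library total of 1000000 (counts per 1000000, CPM). A gene was kept if its mean over the 3 control libraries was at least 2 CPM, its mean over the 3 LPS libraries was at most 50% of that, and each LPS library lay below each control library. The count table lists 54532 genes. Of these, 22046 were protein-coding and 10202 of these passed 2 CPM, so the members are 1.05% of the genes that could have been chosen. The ratio alone was met by 112 genes. Overlapping libraries removed 4 of these, Alb, Col1a1, Gm14296 and Gm14434, and 1 gene was left out by name in the rule.

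The series holds 12 RNA sequencing libraries in 4 groups of 3. All cells carry no genetic change named in the labels and spent 18 h in glucose-free DMEM with dialysed serum and added sugar. The control group had control medium (3 mM glucose and 5 mM fructose) and no LPS. The LPS group had the same medium and then LPS at 1 µg/ml for 6 h. The high-glucose and high-fructose groups had control medium with 15 mM glucose or 15 mM fructose, and the same LPS. No group had raised sugar without LPS, and the labels do not state whether 15 mM replaced or was added to the control level. In what follows, "LPS" means control medium with LPS, and "high glucose" and "high fructose" mean those media with LPS. Whether the 3 libraries of each group came from separate cultures is not stated, so the p-values cover library-to-library spread, possibly technical, and nothing wider.

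Total counts ran from 15453776 to 17956772 per library. The macrophage genes Cd68, Csf1r, Spi1, Ptprc, Tyrobp and Fcer1g were well detected, and 11 of 18 fixed microglia and macrophage markers averaged at least 1 CPM. Sall1, P2ry12, Gpr34, C1qa, Fcrls and Aif1, markers of microglia in brain or of myeloid cells, were at or near 0, so these cells lack part of the profile of microglia in tissue. The 6 lymphocyte markers summed to between 0 and 0.259 CPM, with Cd3e at 0 in every library. Some markers of other fixed lists were detected. Gja1 and Aldh1l1 of the astrocyte list had 69.4 to 93.2 and 17.7 to 30.1 CPM. Flt1 (endothelial) had 49.0 to 74.0 CPM, Mbp (oligodendrocyte) 27.0 to 40.5 and Map2 (neuron) 12.8 to 24.1. The highest other marker of those lists was Cdh5, at up to 1.63 CPM. The fibroblast markers summed to between 0.410 and 3.16 CPM. A set of 8 liver plasma-protein transcripts, chosen after Alb had been seen, stood out in 5 libraries: their sum was 14.2 and 24.2 CPM in control libraries 2 and 3, 17.2 and 40.7 in high-glucose libraries 2 and 3, and 80.8 in high-fructose library 1, against 0 to 1.75 in the others. Without control libraries 2 and 3, which leaves control library 1 alone, the rule chose 123 genes, 87 of them members. Leaving out any 1 control or LPS library kept 95 to 99 members. The part of the liver transcripts in the larger loss was not tested.

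LPS coats Gram-negative bacteria. It is sensed by the receptor TLR4, and macrophages answer with a burst of cytokine and interferon-stimulated genes. The same response lowers other transcripts, through repressors, loss of activating transcription factors and turnover of RNA. Genes known to be lowered in activated macrophages include receptors for lipid and nucleotide signals, brakes on signalling, and genes of cell division. A raised sugar level is of interest because activated microglia take up and ferment more glucose.

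The contrast of LPS with control chose the genes, so its values are a description and carry no test. With LPS the members stood at 18.2% to 49.9% of their control mean, with a median of 42.7%, against a median of 93.2% over all 10202 genes. In such bulk libraries a loss of RNA in every cell and a loss in some of the cells cannot be told apart. The fit across all genes called 103 of the 107 lower, where it called 13.6% of 12766 tested genes lower, and nothing is read from that count, since the choice fixed it. Most members had a low RNA level in control. Per kilobase their median control level was 1.21 FPKM (a deposited unit of fragments scaled by gene length and library size), against 8.5 FPKM over the 10202 genes. Per length, Rasgrp3 led the members at 73.1 FPKM, followed by Tmem158 at 43.9, Lyl1 at 27.9 and Chst10 at 22.6. All 107 passed the filter on low counts and were tested, but 44 had a control mean under 5 CPM, 49 had 5 to 50 and 14 had 50 or more, so the counts behind many of them are small.

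Promoter sequence is printed for 3 members that differed between media under LPS and whose RefSeq start (GRCm38.p6) coincides with the gene start in the count table. Each run covers 250 bases before to 50 after the start, 5′ to 3′ on the gene's strand. Rasgrp3 lies at chr17:75435655-75435954 (plus strand), Olfml3 at chr3:103737952-103738251 (minus strand) and Arhgap19 at chr19:41802035-41802334 (minus strand). Capitals mark matches, on either strand, to the motifs searched.
Rasgrp3: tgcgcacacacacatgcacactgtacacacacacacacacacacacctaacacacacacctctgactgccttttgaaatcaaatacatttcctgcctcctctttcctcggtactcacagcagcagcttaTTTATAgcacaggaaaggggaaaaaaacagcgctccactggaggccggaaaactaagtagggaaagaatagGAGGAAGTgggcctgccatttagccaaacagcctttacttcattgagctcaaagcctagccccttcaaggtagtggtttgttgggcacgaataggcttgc
Olfml3: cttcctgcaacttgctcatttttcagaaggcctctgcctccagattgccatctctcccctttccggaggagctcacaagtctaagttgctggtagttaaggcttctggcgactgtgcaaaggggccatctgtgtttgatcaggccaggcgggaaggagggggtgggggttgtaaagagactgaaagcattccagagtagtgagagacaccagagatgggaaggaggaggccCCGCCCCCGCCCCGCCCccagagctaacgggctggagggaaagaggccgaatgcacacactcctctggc
Arhgap19: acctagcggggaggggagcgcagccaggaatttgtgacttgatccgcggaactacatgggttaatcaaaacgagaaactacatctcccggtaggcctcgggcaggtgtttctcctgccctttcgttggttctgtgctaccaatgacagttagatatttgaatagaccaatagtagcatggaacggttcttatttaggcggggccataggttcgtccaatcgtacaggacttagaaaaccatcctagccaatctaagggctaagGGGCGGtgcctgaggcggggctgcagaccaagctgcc
The Rasgrp3 window holds a TATA box match (TATAAA, here on the opposite strand) and a PU.1 match (GAGGAAGT). That of Olfml3 holds 3 GC box matches (GGGCGG), all on the opposite strand, and that of Arhgap19 holds 1. A match is a string of letters and not a measured site.

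Members with the lowest shares and at least 5 CPM in control are described first. Ipcef1, which binds the cytohesin exchange factors of Arf GTPases, had 9.52, 12.1 and 12.8 CPM in the control libraries, 2.14, 2.88 and 1.83 with LPS, 1.67, 1.93 and 0.817 with high glucose and 1.63, 1.7 and 1.55 with high fructose. Lbh, a transcriptional cofactor (ENSMUSG00000024063, chromosome 17 at 72918305 to 72941947, plus strand), had 47.9, 39.7 and 48.3 CPM in the control libraries, 7.76, 9.34 and 10.1 with LPS, 9.14, 8.83 and 8.54 with high glucose and 10.6, 10.2 and 8.09 with high fructose. All 9 libraries with LPS lay below every control library in both genes, and in Lbh the 3 media with LPS overlapped. The zinc finger gene Zfp395 stood at 20.8%, 27.1% and 23.5% of control with LPS, high glucose and high fructose. Ppp1r3c, whose product brings a phosphatase to glycogen and so favours glycogen synthesis, stood at 28.6%, 37.3% and 33.3% in the same order. Susd3, a membrane protein gene, stood at 30.6%, 27.8% and 32.6%. Each of these stayed under 50% of control in all 3 media with LPS. Among members of any level, Abcd2, a peroxisomal carrier of very long fatty acids, had the lowest share, with 3.5, 3.86 and 3.79 CPM in control and 0.794, 0.823 and 0.413 with LPS. Its count with LPS was 13, 14 and 7 reads a library, so its share is imprecise.

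**Figure D1:**
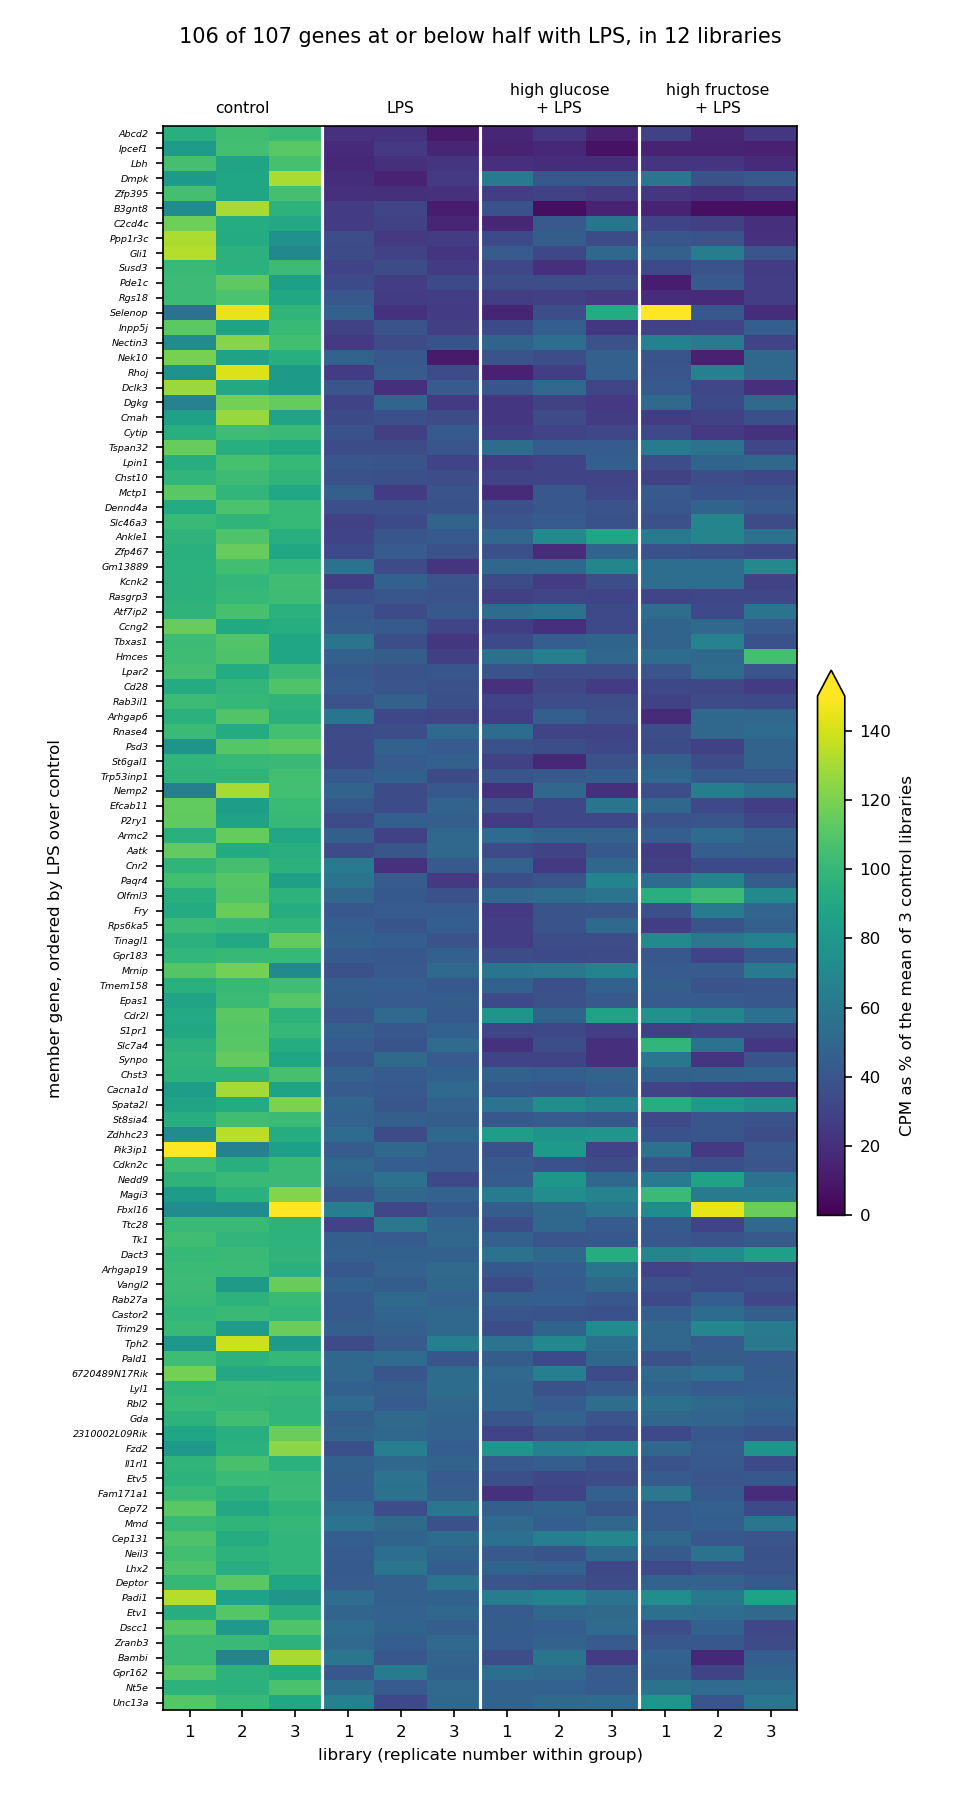
CPM of 106 of the 107 members in each of the 12 libraries, as a percent of the gene's mean over the 3 control libraries, with genes ordered from the lowest share with LPS at the top. The 9 columns with LPS are dark for most genes in all 3 media, and the brightest cells among them include Selenop in high-fructose library 1 and Fbxl16 in high-fructose libraries 2 and 3.

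With raised sugar the members as a group stayed low. Their median share of control was 41.7% with high glucose (range 12.9% to 79.8%) and 42.5% with high fructose (8.91% to 111%), where the medians over all 10202 genes were 92.9% in both. By library the member medians were 43.0%, 42.4% and 43.5% with LPS, 39.3%, 40.9% and 41.5% with high glucose, and 42.8%, 41.9% and 40.8% with high fructose. A level of at most 50% of control was met by 88 members with high glucose, 80 with high fructose, 77 with both (72%) and 16 with neither sugar. All 3 libraries lay below all 3 control libraries for 104 members with high glucose, against 38.3% of the 10202 genes, and for 99 with high fructose, against 38.1%. The control libraries that set this bar also entered the choice. The 3 exceptions with high glucose were Selenop, Zdhhc23 and Pik3ip1, and those with high fructose were Selenop, Hmces, Olfml3, Slc7a4, Spata2l, Magi3, Fbxl16 and Padi1, named after their values were seen.

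The LPS libraries both chose the members and serve as the baseline for the sugar comparisons, so a member's LPS level is low partly by selection. The size of this was measured by choosing genes with 1 LPS library left out. The rule then chose 110, 113 or 115 genes, of which 97, 95 and 96 were members. In those genes the left-out library had a median of 44.7%, 43.6% and 46.1% of control, against 41.4% to 43.3% in the libraries used. The left-out value was above every high-glucose library each time, the highest of which was 42.8%. High-fructose libraries lay at 41.9% to 44.6%. Of the members, 69 were chosen in all 6 selections that left out 1 control or LPS library.

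**Figure D2:**
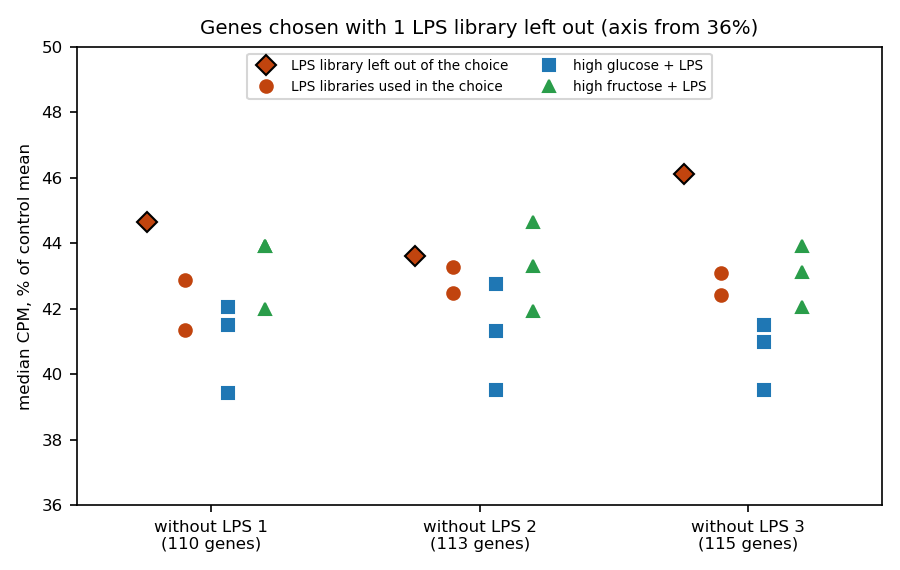
Median CPM as a percent of the control mean, over the genes chosen when 1 LPS library was left out, for the left-out library (diamond), the 2 LPS libraries used (circles) and the high-glucose (squares) and high-fructose (triangles) libraries. The y axis starts at 36%, and high-fructose libraries 1 and 2 coincide at 43.9% in the first column. Each diamond sits above the 2 circles of its column.

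The direction of the sugar differences from LPS varied with a member's read count. Among the 44 members with a control mean of 2 to 5 CPM, the median log2 difference from LPS was 0.23 with high glucose and 0.35 with high fructose, and 33 and 34 of them had the higher mean with sugar. Among the 49 with 5 to 50 CPM the medians were −0.14 and −0.11, and among the 14 with 50 CPM or more −0.15 and −0.12. Over all 107 the medians were −0.10 with high glucose and 0.07 with high fructose, against 0.00 for all tested genes in both. Leaving out high-glucose library 1 moved the glucose median to −0.013, and leaving out high-fructose library 1 moved the fructose median to 0.012. These comparisons share the LPS libraries that selected the genes, and the part of that selection in the low-count values was not tested. Between the sugars, where neither group entered the choice, the median was 0.08 for high fructose over high glucose, and 65 of 107 members had the higher mean with fructose. From the lowest class of control CPM to the highest, that median was 0.17, 0.08 and 0.07, positive in each.

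**Figure D3:**
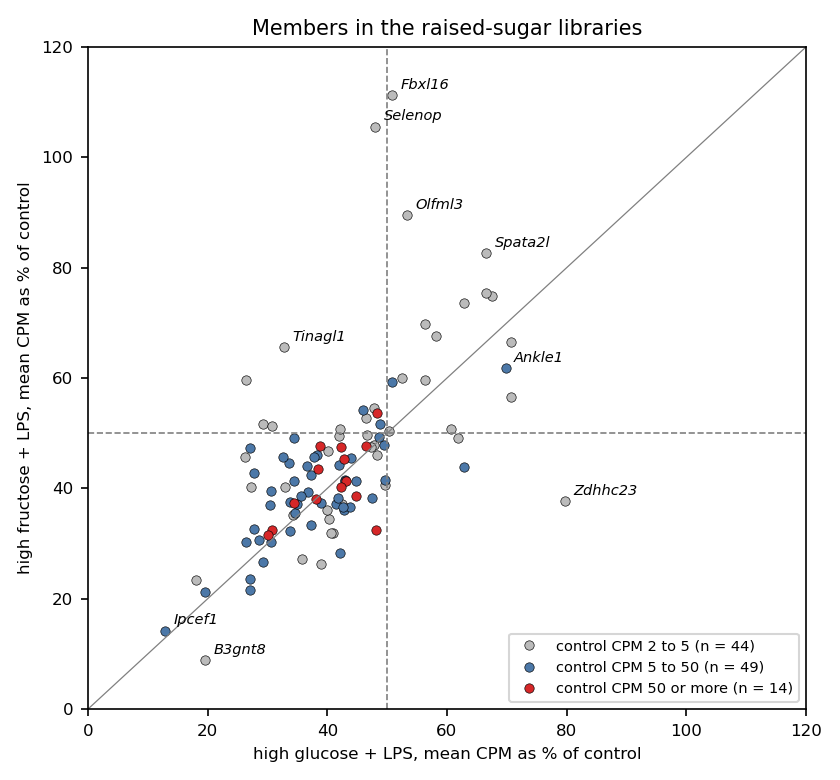
Each point is 1 member, placed by its mean CPM (n = 3 libraries) with high glucose (x) and high fructose (y) as a percent of its control mean, and coloured by its control CPM class. Dashed lines mark 50% and the diagonal marks equal levels; 77 of 107 points lie at or below both dashed lines, and the labelled points were picked after their values were seen.

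High glucose against LPS called 5 members lower and 1 higher, where it called 0.971% and 0.587% of all 12766 genes. At an unadjusted p below 0.05 there were 16 lower and 7 higher, against 7.21% and 6.73% of all genes. High fructose against LPS called 4 lower and 3 higher, where it called 2.55% and 2.37% of all genes, and at an unadjusted p below 0.05 there were 19 and 14, against 7.5% and 8.04%. Both use the LPS libraries that chose the genes. Rasgrp3 and S1pr1 were called lower in both. Between the sugars 2 members were called higher with fructose and 2 lower, against 1.84% and 1.88% of all genes, and at an unadjusted p below 0.05 there were 14 and 5, against 7.88% and 7.75%. As a share of the 107 members the adjusted calls between the sugars are 1.87% each way, near the background. The unadjusted counts of 14 and 5 are less even than the shares over all genes, which was not tested. Against LPS the adjusted calls are 4.67% of members lower and 0.935% higher with high glucose. With high fructose they are 3.74% lower and 2.8% higher. Leaving out 1 library lowered most of these counts. High glucose called 2, 1 and 2 members without LPS library 1, 2 or 3, and 3, 3 and 1 without high-glucose library 1, 2 or 3. High fructose called 4, 5 and 3 without LPS library 1, 2 or 3, and 7, 6 and 4 without high-fructose library 1, 2 or 3. Between the sugars 2, 2 and 3 were called without high-glucose library 1, 2 or 3, and 3, 2 and 5 without high-fructose library 1, 2 or 3.

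Rasgrp3 (ENSMUSG00000071042, chromosome 17 at 75435905 to 75529043, plus strand in mm10) encodes an exchange factor that loads Ras and Rap GTPases with GTP when diacylglycerol recruits it to membranes. It had 366, 380.1 and 392 CPM in the control libraries, 139, 150.3 and 146 with LPS, 108, 119 and 115 with high glucose and 118, 121 and 120.4 with high fructose. Both sugars lay below every LPS library, and they overlapped each other. The log2 difference from LPS was −0.34 ± 0.05 (SE; adjusted p = 0.00195) with high glucose and −0.27 ± 0.05 (SE; adjusted p = 0.00248) with high fructose, and both calls held under all 13 alternatives. Between the sugars it did not pass, at 0.07 (adjusted p = 0.563). S1pr1 (ENSMUSG00000045092, chromosome 3 at 115710433 to 115715072, minus strand), the receptor for sphingosine phosphate that guides immune cell movement, had 22.2, 27.2 and 24.6 CPM in the control libraries, 11.4, 10.1 and 11.4 with LPS, 7.76, 7.98 and 6.85 with high glucose and 6.94, 7.67 and 7.77 with high fructose. Again every sugar library was below every LPS library while the sugars overlapped. The difference was −0.55 ± 0.12 (SE; adjusted p = 0.0081) with high fructose, which held under all 13 alternatives, and −0.54 ± 0.12 (SE; adjusted p = 0.0283) with high glucose. The glucose call was lost in a fit of only the groups compared (adjusted p = 0.0599) and without LPS library 1, 2 or 3 (0.115, 0.0524 and 0.116) or high-glucose library 1 or 3 (0.0591 and 0.141).

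3 further members were called lower with high glucose. Cd28, best known as a costimulatory receptor of T cells, had 23.2, 24.8 and 27.3 CPM in the control libraries, 10.8, 9.93 and 9.32 with LPS, 5.44, 7.98 and 6.47 with high glucose and 8.15, 8.03 and 6.6 with high fructose. Both sugars lay below all LPS libraries. The glucose difference was −0.59 ± 0.14 (SE; adjusted p = 0.0441), and the fructose difference of −0.39 (adjusted p = 0.142) did not pass. Etv5, an ETS family transcription factor, had 43.3, 45.7 and 45.4 CPM in the control libraries, 20.3, 25.5 and 19.4 with LPS, 16.4, 14.3 and 15.6 with high glucose and 19.6, 17.7 and 18.3 with high fructose. The high-glucose libraries were below all LPS libraries, by −0.49 ± 0.10 (SE; adjusted p = 0.0219), while the high-fructose libraries overlapped them. A match to another gene covers 42.8% of the Etv5 transcript at 98% identity, so part of its count may be shared. Chst10, a sulfotransferase that adds the HNK-1 epitope to glycans, had 282, 294 and 281 CPM in the control libraries, 106, 105 and 102 with LPS, 87.3, 88.3 and 88.1 with high glucose and 85, 100.5 and 93.1 with high fructose. Its high-glucose libraries were the tightest and lay below LPS, by −0.24 ± 0.06 (SE; adjusted p = 0.0376). Every high-fructose library also lay below every LPS library, but the difference of −0.16 (adjusted p = 0.129) did not pass. The sugars overlapped each other and did not differ by the test, at 0.08 (adjusted p = 0.549). These glucose calls were not stable, though no difference changed sign. Over the 13 alternatives Cd28 ranged from −0.75 to −0.47, Etv5 from −0.57 to −0.36 and Chst10 from −0.26 to −0.23. Cd28 was lost with only the groups compared (adjusted p = 0.0761) and without any 1 library but high-glucose 2 (0.0805 to 0.168). Etv5 was lost with only the groups compared (0.0519), without LPS library 1 or 2 (0.0524 and 0.135) and without high-glucose library 2 or 3 (0.0796 and 0.0862). Chst10 was lost without any 1 of the 6 libraries (0.0802 to 0.146).

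Arhgap19 (ENSMUSG00000025154, chromosome 19 at 41766588 to 41802084, minus strand), a GTPase-activating protein that switches off RhoA and acts in cell division, separated the sugars. It had 62.4, 62.2 and 58.1 CPM in the control libraries, 25.1, 28.8 and 31.4 with LPS, 25, 27.4 and 35.4 with high glucose and 18.7, 20.8 and 19.7 with high fructose. The high-fructose libraries were below all of the others, and high glucose overlapped LPS. High fructose differed from high glucose by −0.57 ± 0.11 (SE; adjusted p = 0.00694), which held under all 13 alternatives, and from LPS by −0.52 ± 0.11 (SE; adjusted p = 0.00848), which was lost without LPS library 3 (adjusted p = 0.0562). Zranb3, a translocase that remodels stalled replication forks, had 64.5, 63.9 and 61.3 CPM in the control libraries, 32.3, 28.4 and 32.5 with LPS, 27.6, 30.1 and 27.4 with high glucose and 25.7, 25.8 and 21.6 with high fructose. Its high-fructose libraries were again the lowest 3 and did not overlap the others. The difference from LPS was −0.34 ± 0.08 (SE; adjusted p = 0.0206), lost with only the groups compared (0.066) and without LPS library 1 or 3 (0.0968 and 0.0982) or high-fructose library 3 (0.112), and that from high glucose was −0.22 (adjusted p = 0.202). Genes on the other strand overlap 7.78% of its exonic bases, and as the strand setting of the counts is unknown, reads of such partners cannot be told apart. Cep131, a gene of centriolar satellites and cilia, had 15.9, 13.6 and 14.5 CPM in the control libraries, 6.6, 7.05 and 7.79 with LPS, 8.06, 9.43 and 10.2 with high glucose and 7.37, 6.08 and 5.82 with high fructose. Its fructose libraries were below the glucose libraries, by −0.52 ± 0.14 (SE; adjusted p = 0.0419), but overlapped LPS. That call was lost with only the groups compared (0.146), without high-glucose library 2 or 3 (0.107 and 0.147) and without high-fructose library 2 or 3 (0.132 and 0.143).

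Of the members called higher under a sugar, Olfml3, Tinagl1 and Ankle1 had low counts. Olfml3 (ENSMUSG00000027848, chromosome 3 at 103722222 to 103738001, minus strand), a secreted glycoprotein known as a microglia-enriched gene, had 3.74, 4.33 and 3.84 CPM in the control libraries, 1.96, 1.65 and 1.47 with LPS, 1.97, 2.12 and 2.26 with high glucose and 3.74, 4.08 and 2.85 with high fructose, from 32, 28 and 25 reads with LPS and 62, 67 and 44 with high fructose. Its fructose libraries were above every LPS and high-glucose library and overlapped control. The difference from LPS was 1.08 ± 0.23 (SE; adjusted p = 0.0069), which held under all 13 alternatives, 1.03 (adjusted p = 0.0287) without high-fructose library 1, the library with the most liver transcripts, and that from high glucose was 0.75 (adjusted p = 0.0736). Tinagl1, a secreted matricellular protein, had 4.4, 4.16 and 5.23 CPM in the control libraries, 2.14, 2.06 and 1.77 with LPS, 1.25, 1.63 and 1.63 with high glucose and 3.26, 2.74 and 3.04 with high fructose. Here high fructose lay above the other LPS-treated groups and below control, and high glucose was lowest. High fructose exceeded high glucose by 1.00 ± 0.23 (SE; adjusted p = 0.0181), a call lost with only the groups compared (0.108) and without high-glucose library 1 or high-fructose library 1 (0.0718 and 0.0624). Its differences from LPS were −0.39 (adjusted p = 0.496) and 0.60 (adjusted p = 0.155).

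Ankle1, an endonuclease that cuts branched DNA, had 9.34, 10.4 and 8.97 CPM in the control libraries, 2.87, 3.82 and 4.07 with LPS, 4.72, 6.83 and 8.48 with high glucose and 5.86, 6.51 and 5.37 with high fructose. Both sugars lay above every LPS library and below every control library, and they overlapped each other. It was higher by 0.89 ± 0.20 (SE; adjusted p = 0.0298) with high glucose and 0.73 ± 0.20 (SE; adjusted p = 0.046) with high fructose. The glucose call was lost with only the groups compared (adjusted p = 0.0615) and without any 1 library but high-glucose 1 (0.0659 to 0.16). The fructose call was lost with library totals alone as scaling (0.0502) and without any 1 of the 6 libraries (0.0631 to 0.214). Dennd4a, an exchange factor for Rab GTPases in membrane traffic, had 284, 330.0 and 309 CPM in the control libraries, 113, 113 and 115 with LPS, 112, 126 and 118 with high glucose and 126, 147 and 128 with high fructose. Its LPS libraries were nearly equal, and the high-fructose libraries lay above them by 0.24 ± 0.07 (SE; adjusted p = 0.0493). That call was lost with library totals alone (0.0584) and without LPS library 1, 2 or 3 (0.159, 0.147 and 0.131) or high-fructose library 2 or 3 (0.218 and 0.0605). Castor2, from the family of arginine sensors that restrain mTORC1, had 100.1, 101 and 100.1 CPM in the control libraries, 42.9, 49.2 and 50.7 with LPS, 40.0, 39.1 and 38.1 with high glucose and 45.2, 53 and 45.4 with high fructose. High glucose was below the other media with LPS, and high fructose overlapped LPS. The sugars differed by 0.30 ± 0.07 (SE; adjusted p = 0.0301), lost with only the groups compared (0.102), without high-glucose library 1, 2 or 3 (0.0525, 0.0931 and 0.112) and without high-fructose library 2 (0.15).

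**Figure D4:**
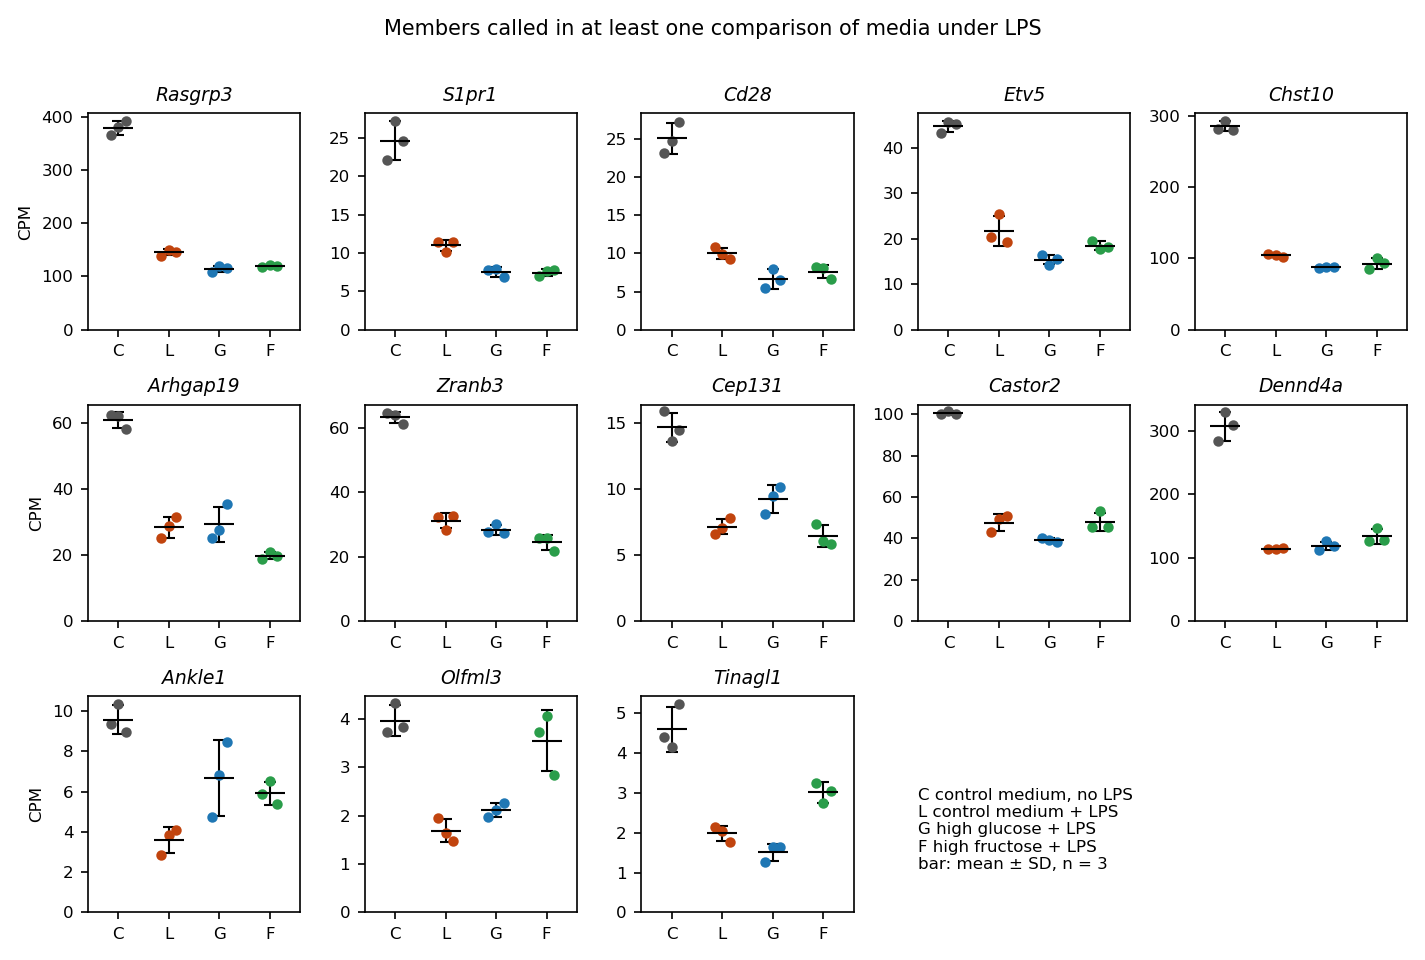
CPM per library (points) with mean and SD (bars, n = 3) for the 13 members called in at least 1 comparison of media under LPS, each panel on its own axis from 0. C is control medium without LPS, L control medium with LPS, G high glucose with LPS and F high fructose with LPS. Rasgrp3 and S1pr1 are lower in both G and F than in L, Arhgap19 is lower in F alone, and Olfml3 in F reaches the range of C.

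By function, 85 members were sorted into 12 groups after their names had been seen, and 22 fitted none. The groups carry no test, and their LPS values are set by the choice of genes.

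Surface receptors and ligand-binding membrane proteins (12 members) had a median of 41.7% of control with LPS, 38.6% with high glucose and 37.8% with high fructose. Gpr183, a receptor for oxysterols that guides migration, had 55, 55.5 and 55.7 CPM in the control libraries, 23.6, 22.9 and 25.5 with LPS, 19.2, 18.6 and 19.5 with high glucose and 22.7, 16.9 and 22.5 with high fructose. Its 3 control libraries were nearly equal and every LPS-treated library lay below them. Il1rl1, the receptor for interleukin 33, stood at 48.5%, 41.7% and 38.3% of control with LPS, high glucose and high fructose. Lpar2, a lysophosphatidic acid receptor, stood at 39.9%, 36.7% and 44%, and P2ry1, an ADP receptor, at 41.4%, 30.5% and 37%, with 23.1% of P2ry1 exons overlapped by a gene on the other strand. Of 16 tested receptors for purines, adenosine and signalling lipids in a fixed list, LPS raised 7 and lowered 4, where it raised 15.2% and lowered 13.6% of all tested genes, and Gpr183, Lpar2, P2ry1 and S1pr1 of this list were chosen for being low with LPS. Over that list high glucose called 2 lower and 0 higher, and high fructose 1 and 0, against LPS, S1pr1 in both cases among those lower. Of all tested genes, high glucose called 0.971% lower and 0.587% higher, and high fructose 2.55% and 2.37%. The other members here are Nt5e, the ectoenzyme that makes adenosine, the cannabinoid receptor gene Cnr2, and Susd3, Gpr162, Tspan32 and Nectin3.

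Regulators of small GTPases, cytohesins and G proteins (12) had a median of 39.3% of control with LPS, 34.4% with high glucose and 34.5% with high fructose. Besides Rasgrp3, Dennd4a and Arhgap19, Rab3il1, an exchange factor in Rab-dependent exocytosis, had 28, 27.2 and 26.6 CPM in the control libraries, 10.5, 12.6 and 9.91 with LPS, 8.3, 9.61 and 9.67 with high glucose and 7.91, 9.49 and 8.99 with high fructose. Cytip, which binds cytohesins, stood at 36.3%, 29.2% and 26.7% of control. Rgs18, which speeds the shut-off of Gi and Gq, stood at 31.5%, 27.1% and 21.5%. In both, the means with sugar were below those with LPS without passing the test. Of 13 tested regulators of G protein signalling in the fixed list, LPS raised 3 and lowered 5, against 15.2% and 13.6% of all genes. Rgs18 alone met the rule. Ipcef1, described above, had the lowest share of the group in each LPS-treated medium. Rab27a, Arhgap6, Psd3, Nedd9 and Rhoj complete the group.

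Enzymes of lipids and second messengers, with solute transporters (8), had a median of 35.6% of control with LPS, 34% with high glucose and 45.2% with high fructose. Lpin1, a phosphatidate phosphatase and transcriptional coactivator, had 9.77, 11.1 and 10.5 CPM in the control libraries, 4.22, 4.06 and 3.13 with LPS, 2.75, 3.14 and 4.65 with high glucose and 3.68, 5.05 and 5.24 with high fructose. Pde1c, a calmodulin-dependent phosphodiesterase of cyclic nucleotides, stood at 31.4%, 35.8% and 27.2% of control. Tbxas1, which makes thromboxane, stood at 39.2%, 42.1% and 50.8%, and the lysosomal transporter gene Slc46a3 at 37.1%, 40.1% and 46.7%. None of these 4 passed in a sugar comparison. In the fixed lists, LPS raised 4 and lowered 3 of 13 phosphodiesterase genes, and raised 2 and lowered 6 of 25 genes of peroxisomal fatty acid handling. Of all tested genes it raised 15.2% and lowered 13.6%. Abcd2, Dgkg, Slc7a4 and Inpp5j are the remaining members.

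Glycan-modifying enzymes (6) had a median of 38.8% of control with LPS, 29.7% with high glucose and 34.8% with high fructose. Chst3, which sulfates chondroitin, had 72.2, 72.1 and 79.3 CPM in the control libraries, 35, 32 and 34.5 with LPS, 34.8, 33.4 and 35.6 with high glucose and 34.7, 35.6 and 36.5 with high fructose, with all 9 LPS-treated libraries within a narrow band. St8sia4, which builds polysialic acid, stood at 45.6%, 41.5% and 37.1% of control and St6gal1, which caps glycans with sialic acid, at 41%, 27.7% and 42.8%. Cmah, the hydroxylase that makes N-glycolylneuraminic acid, stood at 34.9%, 28.5% and 30.7%. The sixth member is B3gnt8, a glycan-extending enzyme, with 5, 2 and 2 reads in the high-fructose libraries. In 5 of the 6 genes the mean with high glucose was below that with LPS, but only Chst10 passed.

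DNA-binding transcription factors (8) had a median of 46.1% of control with LPS, 39.7% with high glucose and 41.9% with high fructose. Etv1, of the same ETS subfamily as Etv5, had 206, 244 and 213 CPM in the control libraries, 108, 105 and 112 with LPS, 96.5, 109 and 114 with high glucose and 122, 119 and 115 with high fructose, and 21.8% of its transcript matches another gene. Unlike Etv5 it did not pass with high glucose, at −0.02 (adjusted p = 0.953), though the difference between the 2 genes was not tested. Epas1, which encodes the hypoxia-inducible factor HIF-2α, had 40.0, 46.6 and 50.3 CPM in the control libraries, 20.3, 19.6 and 20.2 with LPS, 15.1, 16.9 and 19 with high glucose and 19.7, 19.8 and 18.6 with high fructose. Lyl1, a basic helix-loop-helix factor of blood cells, stood at 48.3%, 42.9% and 45.3% of control. LPS raised 6 and lowered 7 of 23 macrophage and microglia transcription factors in the fixed list, against 15.2% and 13.6% of all genes. Etv5 and Lyl1 of that list are members. The other members of the group are Lhx2, Zfp467, Zfp395 and Gli1.

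Genes of the cell cycle, replication, repair and centrosome (13) had a median of 46.2% of control with LPS, 44.9% with high glucose and 44.3% with high fructose. Tk1, the thymidine kinase of dividing cells, had 111, 106 and 104 CPM in the control libraries, 48.6, 46.7 and 53 with LPS, 49, 42.6 and 44.5 with high glucose and 43.4, 41.2 and 44.9 with high fructose. Cdkn2c, an inhibitor of the kinases that start the cycle, had 59.8, 54.9 and 58.8 CPM in the control libraries, 28.8, 25.8 and 24.8 with LPS, 24.1, 21.8 and 20.3 with high glucose and 22.3, 21.1 and 22.7 with high fructose. The group thus held genes of proliferating cells beside inhibitors. Rbl2, a pocket protein of resting cells, stood at 48.3%, 48.8% and 51.6% of control, with 21% of its exons overlapped on the other strand, and Ccng2, an unconventional cyclin of arrested cells, at 39.2%, 27% and 47.4%. Of 28 fixed genes of replication and mitosis LPS lowered 26, with a median log2 difference of −0.40, and none met the rule. Of 27 FoxO target and growth arrest genes LPS raised 7 and lowered 8, and Ccng2 and Pik3ip1 are members. Of all tested genes LPS raised 15.2% and lowered 13.6%. Neil3, Cep72, Trp53inp1, Dscc1, Mrnip and Hmces complete the group with Zranb3, Cep131 and Ankle1. Mrnip is uncertain, since 51.1% of its transcript matches another gene. That search covered both strands and did not leave out overlapping genes.

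Growth signalling genes (4) had a median of 46.5% of control with LPS, 38.9% with high glucose and 43.1% with high fructose. Castor2, Deptor and Pik3ip1 encode inhibitors in the mTOR and PI3K pathways, and Rps6ka5 encodes the kinase MSK1, which phosphorylates histone H3. Deptor stood at 48.8%, 37.8% and 45.7% of control with LPS, high glucose and high fructose, and Rps6ka5 at 43%, 39% and 37.4%. Pik3ip1 had 4.04, 1.76 and 2.28 CPM in control and 1.16, 1.35 and 1.18 with LPS, so control library 1 carried much of its contrast. Ion channels and calcium-dependent traffic genes (5) had a median of 38.1% of control with LPS, 38.9% with high glucose and 39.5% with high fructose. Kcnk2, a background potassium channel, had 6.93, 7.14 and 7.46 CPM in the control libraries, 2.02, 3.35 and 2.83 with LPS, 2.51, 1.93 and 2.58 with high glucose and 3.86, 3.89 and 2.07 with high fructose, with 12.2% of its exons overlapped on the other strand. Cacna1d, a voltage-gated calcium channel, stood at 45.4%, 42% and 28.3% of control and Mctp1, a calcium-binding membrane protein, at 36.9%, 30.5% and 39.5%. C2cd4c and Unc13a are the others.

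Wnt, planar polarity and BMP genes (4) had a median of 47.8% of control with LPS, 54.6% with high glucose and 46.4% with high fructose. Vangl2, a core planar polarity protein, stood at 47%, 42.7% and 36.2% of control, and Bambi, a decoy receptor of the BMP and TGF-β family, at 49.4%, 40.0% and 36.1%. Dact3, a Wnt antagonist, had 4.7, 4.74 and 4.57 CPM in the control libraries, 2.14, 2.17 and 2.18 with LPS, 2.63, 2.36 and 4.33 with high glucose and 3.2, 3.41 and 3.95 with high fructose, with all sugar libraries above all LPS libraries but adjusted p of 0.328 and 0.105. The Wnt receptor gene Fzd2 stood at 48.5%, 70.7% and 56.6%. LPS raised 6 and lowered 5 of 30 fixed Wnt and Notch genes, against 15.2% and 13.6% of all tested genes. Other kinases (4) had a median of 33.8% of control with LPS, 40.6% with high glucose and 36.6% with high fructose. Aatk stood at 41.9%, 35.6% and 38.7%, and Dclk3, Dmpk and Nek10 had under 5 CPM in control. Dmpk, the kinase gene of myotonic dystrophy, had 2.23, 2.46 and 3.62 CPM in the control libraries, 0.55, 0.411 and 0.708 with LPS, 1.73, 1.15 and 1.13 with high glucose and 1.63, 1.03 and 1.16 with high fructose. Every sugar library of Dmpk was above every LPS library, without passing (adjusted p = 0.132 and 0.0986).

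Secreted proteins (5) had a median of 41.9% of control with LPS, 47.3% with high glucose and 65.5% with high fructose. Rnase4 stood at 40.7%, 38.3% and 46% of control, and shares 13.4% of its exonic bases with Ang on the same strand. Selenop, the selenium carrier made mainly by liver, had 1.51, 3.86 and 2.62 CPM in the control libraries, 1.22, 0.588 and 0.708 with LPS, 0.418, 0.967 and 2.45 with high glucose and 6.82, 1.1 and 0.518 with high fructose. Its highest library in the control, high-glucose and high-fructose groups, library 2, 3 and 1 in turn, had Alb at 9.08, 21.9 and 56.4 CPM. High-glucose library 2, with Alb at 6.41 CPM, had 0.967 CPM of Selenop, below control library 1, where Alb was at 0.121 CPM. Genes on the other strand overlap 15.4% of its exonic bases. Alb was at most 0.122 CPM in the LPS libraries. The part of these transcripts in the Selenop values was not tested. Without control libraries 2 and 3 the rule no longer chose Selenop. Control library 1 alone, at 1.51 CPM, is under the 2 CPM minimum, so nothing is read from that loss. Selenop was chosen in all 6 selections that left out 1 control or LPS library. Metabolic enzymes and regulators (4) had a median of 47.9% of control with LPS, 51.5% with high glucose and 49.2% with high fructose. Gda, a guanine deaminase, had 126, 135 and 128 CPM in the control libraries, 59, 67.4 and 61.6 with LPS, 52.3, 61 and 51.6 with high glucose and 63.9, 63.1 and 58 with high fructose. Tph2, of serotonin synthesis, and Padi1, a protein arginine deiminase, stood at 47.4%, 60.6% and 50.8% and at 48.9%, 62.8% and 73.5%, with 32% of Padi1 exons overlapped on the other strand. Of 20 glycogen genes LPS raised 2 and lowered 8, Ppp1r3c among them, against 15.2% and 13.6% of all tested genes. Further fixed lists held no member. LPS raised 5 and lowered 3 of 27 transforming growth factor beta genes, and raised 4 and lowered 2 of 16 clock genes. It raised 1 and lowered 3 of 11 Kruppel-like factors. The shares over all genes are again 15.2% and 13.6%, and no list was tested as a set.

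**Figure D5:**
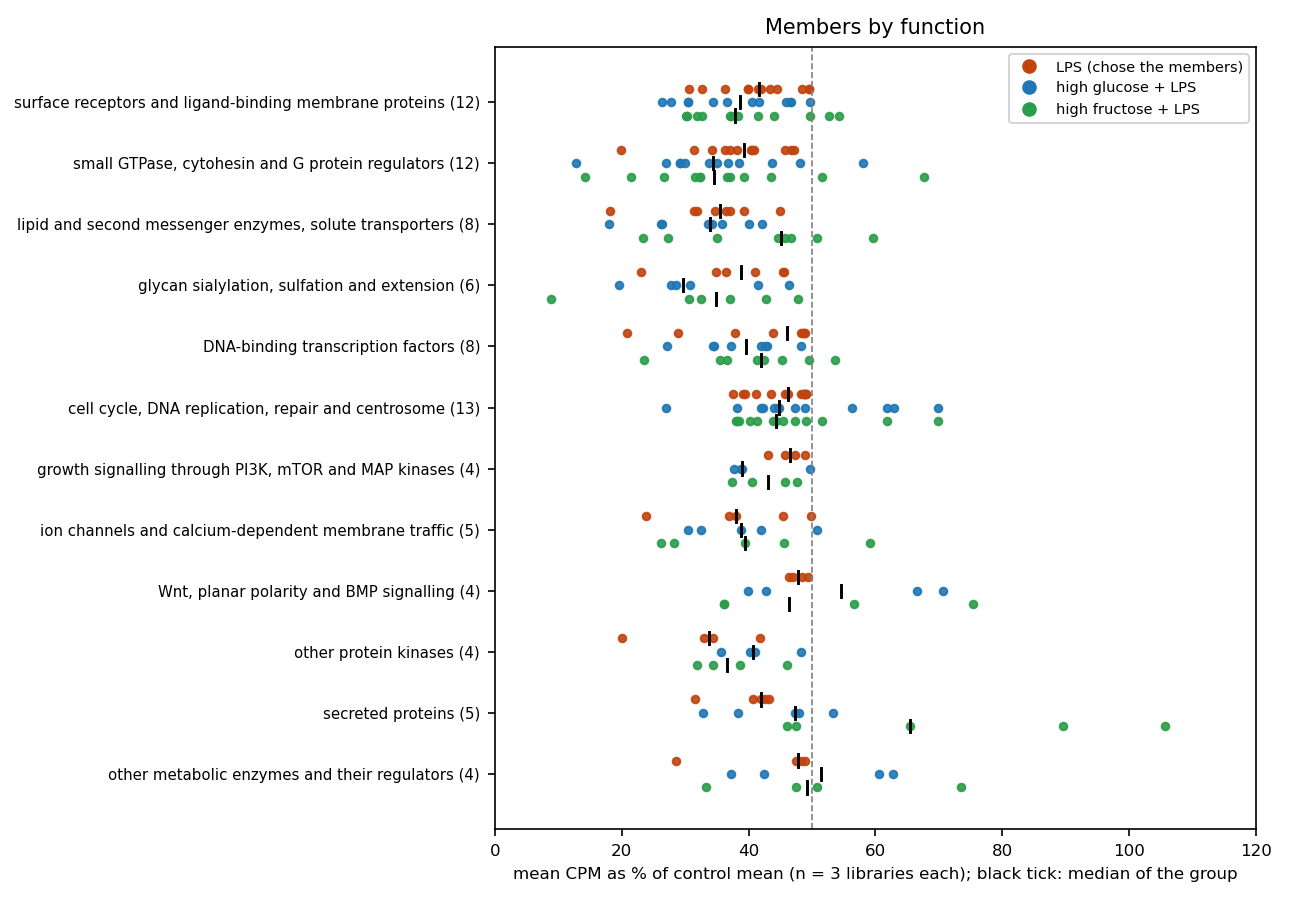
Mean CPM (n = 3 libraries) as a percent of the control mean for the 85 members in 12 function groups, with LPS in orange, high glucose in blue and high fructose in green; the black tick is the group's median and the dashed line marks 50%. Most points lie at or left of the line in all 3 media, and the green median of secreted proteins stands to its right at 65.5%.

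The 22 members outside these groups include Lbh and Tmem158, a membrane protein gene first described in cells with active Ras, which had 75.5, 79.6 and 82.5 CPM in the control libraries, 35.9, 35.5 and 32.6 with LPS, 36.9, 28.8 and 36.9 with high glucose and 36.1, 30.5 and 31.5 with high fructose. The others are Mmd, a macrophage differentiation gene with 21.5% of its exonic bases shared with another gene on its strand, and Pald1, 2310002L09Rik, Fry, Ttc28, Armc2, Trim29, Cdr2l, Paqr4, Efcab11, Gm13889, Magi3, Spata2l, Fam171a1, Nemp2, Fbxl16, Zdhhc23, 6720489N17Rik, Synpo and Atf7ip2. Fbxl16 had 1.87, 1.87 and 3.95 CPM in the control libraries, 1.65, 0.823 and 1.06 with LPS, 1.13, 1.27 and 1.51 with high glucose and 1.87, 3.71 and 2.98 with high fructose, with wide overlap between control and high fructose. Zdhhc23, a palmitoyltransferase, had 1.87, 3.46 and 2.39 CPM in the control libraries, 1.34, 0.882 and 1.3 with LPS, 2.15, 2.0 and 2.01 with high glucose and 0.966, 1.03 and 0.906 with high fructose. Its 3 high-glucose libraries lay above all LPS and high-fructose libraries, and high fructose differed from high glucose by −1.07 (adjusted p = 0.0749). Of members given above without it, opposite-strand exons overlap 28.4% of Mrnip, 18.1% of B3gnt8, 13.3% of Slc7a4, 12.6% of Spata2l, 12.1% of Paqr4 and 11% of Arhgap6. At the edge of the rule, Unc13a and Nt5e stood just inside at 49.9% and 49.5% with LPS, and B430306N03Rik and Prkar1b just outside at 50.1% and 50.2%.

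Members were spread over the genome. Chromosome 16 held 7 of its 332 candidate genes (2.11%) and chromosome X 1 of 311 (0.322%). Within 1 Mb of each other lay 9 pairs, among them Dgkg and Etv5, 28742 bases apart on chromosome 16, Deptor and Dscc1, 21826 bases apart on chromosome 15, and Aatk and Cep131, 17263 bases apart on chromosome 11. Pairs were not counted over the candidate genes, so no clustering is read from them. A RefSeq promoter was matched for 82 members and for 8172 of the candidate genes. The ratio of observed to expected CpG had a median of 0.605 in members and 0.796 in candidates, and GC content 58.3% and 61.3%. Where the RefSeq start lay close to the gene start in the count table, for 50 members and 6294 candidates, the CpG medians were 0.660 and 0.798. The ETS motif CCGGAAGT, on either strand, was in 0 of 82 member promoters and in 9.86% of candidates, the E-box CACGTG in 4.88% and 11.0%, and the cyclic AMP response element TGACGTCA in 0% and 3.52%. The TATA box was in 12.2% and 6.25%, the GC box in 56.1% and 67.5%, the AP-1 motif TGANTCA in 7.32% and 4.39%, the PU.1 motif in 2.44% and 3.27%, and the NF-kB motif GGGACTTTC in 1.22% and 0.33%. The forkhead motif GTAAACA was in 3.66% and 2.36% and the interferon response core GAAANNGAA in 7.32% and 6.85%. The ETS and PU.1 motifs share the letters GGAAGT. The ETS, E-box, cyclic AMP response element and GC box motifs each contain CG. The part of the lower CpG ratio of members in the lower shares of these motifs was not tested. Over the 50 members and 6294 candidates whose transcript start lay close to the gene start, the shares were 0% and 10.5% for ETS, 6.0% and 11.2% for the E-box, 0% and 3.8% for the cyclic AMP response element, 12% and 6.26% for the TATA box, and 56.0% and 67.9% for the GC box. In that set AP-1 was at 4.0% and 4.13%, NF-kB at 0% and 0.365%, forkhead at 0% and 2.49% and the interferon response core at 6.0% and 7.09%, so the higher member shares of these 4 motifs were not seen there. PU.1 was at 2.0% and 3.38%. These shares are descriptions of a 300-base window.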

How the data were processed

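RNA of N9 cells was sequenced in 12 libraries, 3 per group, with groups taken from the labels. Deposited values were raw counts of reads per gene, made with featureCounts 1.5.0-p3 on mm10 per the submitters' processing notes, and an FPKM table deposited by the authors, used only for levels compared between genes. Aligner, annotation release and strand setting: not given in the sources used here. The members and gene lists were chosen with earlier results of these data known. CPM for the rule used column totals; the median of the 10202 candidate genes then lies at −0.10 on the log2 scale with LPS, against −0.012 with TMM factors, and the rule on TMM-scaled CPM chose 76 genes, all members. The test on counts was that of edgeR 4.0.16 (R 4.3.3): filterByExpr, TMM, a quasi-likelihood model of all 12 libraries with 1 coefficient per group, Benjamini-Hochberg adjustment over 12766 genes, called at adjusted p below 0.05. Differences are log2 fold changes with SE from this fit. Alternatives were other scaling, filters, a replicate block, fits of only the groups compared, DESeq2 1.42.0, and leaving out each library. Libraries of a group differed by more than counting error (lowest chi-square per degree of freedom 3.47). Exon overlap and similar transcripts (98% identity over at least 75 bases) were checked on GENCODE annotation of GRCm38. Similar transcripts were searched on both strands, so a gene that overlaps a member can be its match. Genes were named by rule: the 16 lowest shares with LPS at 5 CPM or more in control, the 10 highest control CPM, up to 10 called members a comparison, members of fixed lists, the 2 genes on each side of the ratio, and up to 4 per function group; other names were chosen with values in view. The fit was tested on simulated data. A few named genes, 1 member among them, are not reported here.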

Additional observations from a re-analysis of the deposited data

How the results depend on the processing

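The number of genes chosen followed the thresholds: 63 with a control minimum of 5 CPM, 38 with LPS at most 0.4 of control and 267 at most 0.6, against 107, and 108 to 115 when 1 library was left out. With high glucose against LPS, 6 members were called, 2 with only the groups compared and 1 to 3 when 1 library was left out, and the median difference of −0.10 came to between −0.10 and −0.013 in those smaller fits. With high fructose, 7 were called and 3 to 7 when 1 library was left out, with a median of 0.012 to 0.055. Between the sugars, 4 were called, 7 with no filter on low counts, 1 with only the groups compared and 2 to 5 when 1 library was left out, with a median of 0.044 to 0.095. No called member changed sign in the alternatives. The replicate number as a block gave 8, 9 and 5 calls, against 6, 7 and 4. Same-numbered libraries correlated weakly at most (r from −0.19 to 0.24 over 18 pairs, 5 above 0.1), so the numbers were not taken as pairs. Control and high-glucose pairs were all positive, at 0.24, 0.19 and 0.063. In both of these groups liver transcripts were low in library 1 and higher in libraries 2 and 3. The part of these transcripts in the correlations was not tested. The 44 members with a control mean under 5 CPM are the least precise.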

Other observations

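The genes that met the ratio but whose libraries overlapped were uneven across libraries. Alb, the albumin gene of liver, had 0.121, 9.08 and 16.3 CPM in control, 0.122, 0 and 0 with LPS, 0.119, 6.41 and 21.9 with high glucose and 56.4, 0 and 0.518 with high fructose. Col1a1, a collagen of connective tissue, had 4.22, 0.176 and 2.73 CPM in control and 2.44, 0.176 and 0.0590 with LPS. The gene models Gm14296 and Gm14434 were likewise split within groups, with Gm14434 at 0, 8.26 and 0.111 CPM in control and 0.0611, 0.118 and 3.95 with LPS.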
